A study of Mus musculus with 10 samples.

Results

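The transcripts described here are those of the potassium, calcium and sodium channel genes of mouse primary cortical neurons. Their members are the probe sets whose gene symbol starts with Kcn or Cacn, or with Scn followed by a digit, and which were measured on both array designs of the study. This rule found 65 probe sets of 59 genes, among 9977 probe sets shared by the designs and 7417 genes named by them. It is wider than voltage-gated channels in the strict sense, since it also takes inward rectifiers, tandem-pore leak channels, calcium-activated channels, Scn7a (a sodium-sensing relative) and Cacng2 (stargazin, best known as an auxiliary subunit of AMPA receptors). The neurons came from foetal cortices of Swiss albino mice at gestation day 15 to 16 and were treated on day 5 in culture. Lactacystin, which inhibits the proteasome, was given at 1 µM for 24 h (3 arrays) or 48 h (3 arrays), and control cultures were taken at 24 h (2 arrays) and 48 h (2 arrays). The lactacystin stock was in DMSO. Whether the controls were given DMSO, and whether replicates came from different cultures, is not stated in the labels. The p-values thus reflect only the spread among these arrays, which may be technical.

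Voltage-gated sodium and calcium channels open when the membrane depolarises and carry the upstroke of action potentials and the calcium entry that drives transmitter release and gene regulation. Potassium channels repolarise the membrane and set its resting potential. Each channel is built around pore-forming subunits, and auxiliary subunits change its gating or its delivery to the cell surface.

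Each array gave a linear signal for every probe set, here rescaled so that the trimmed mean over the shared probe sets was 500 on every array. One array of each group was of the older design, U74A, and the other 6 arrays were of its revision, U74Av2, deposited as separate tables that were normalized separately. Levels given below are therefore not comparable across designs, and tests carried the design as a covariate. Differences are log2 of the scaled signal plus 32, with the standard error (SE), and understate the change of low signals. A probe set rose or fell where the adjusted p of limma was under 0.05 over all 6984 probe sets tested. The number of arrays limits the precision.

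Many of the channel probe sets gave low signals. Of the 65, 32 (49.2%, all the probe sets of 27 genes) lay among the 30% of shared probe sets with the lowest mean and were not tested. Of the probe sets of a list of genes restricted to other tissues, such as liver, testis and muscle, 75% (24 of 32) lay there. The level dividing tested from untested was a scaled signal of 51.3. Kcnj1 (45.7) and Kcns1 (44.4) stood just under it, and Kcna2 (57.7) and Cacng1 (60.1) just above. All 10 arrays were above a scaled signal of 32 for 25 of the 65 channel probe sets (38.5%), against 65.6% of all shared probe sets. The same held for 28.1% (9 of 32) of the list restricted to other tissues, where the highest median signal of a probe set was 353. A signal above the filter level thus does not by itself show that a gene is expressed in these cultures. No array was above 32 for 10 of the 65, a share close to that of all shared probe sets (1237 of 9977). Among the 10 were Scn10a of sensory neurons (3.11 to 8.11) and Scn3a (1.64 to 19.0).

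The low members covered every class except the auxiliary calcium channel subunits, whose 5 probe sets were all tested. Of the inward rectifiers 3 of 14 probe sets were tested, of the sodium channels 2 of 7 and of the calcium channel pore subunits 3 of 7. Among the voltage-gated potassium pore subunits 8 of 17 were tested, and 4 of 5 of their auxiliary subunits. The calcium-activated and related Slo channels had 4 of 5 tested, as did the tandem-pore channels. A low signal of a probe set does not show that the gene is silent, as the genes with several probe sets make plain. A probe set of Scn8a, a main sodium channel of the axon initial segment, ran from 124 to 289, and another from 1.64 to 6.26. The 6 genes with a pair of probe sets were Cacna1e, Kcnd2, Kcnj1, Kcnj15, Kcnj6 and Scn8a.

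Several of these genes differed in signal between the array designs. All 4 U74A arrays were above all 6 U74Av2 arrays for 10 of the 65 members (15.4%), against 10.4% of all shared probe sets. Kcna6, a delayed-rectifier subunit, ran from 54.5 to 124 on U74A and from 6.49 to 13.7 on U74Av2. Cacna1a, the pore of P/Q-type calcium channels at nerve terminals, ran from 28.8 to 85.6 on U74A and from 4.75 to 11.4 on U74Av2. Both were under the filter and have no test. The others were Kcnd1, Kcnu1, Kcnj4, Scn1a, Kcnab1, Kcnab3 and both probe sets of Kcnd2.

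**Figure D1:**
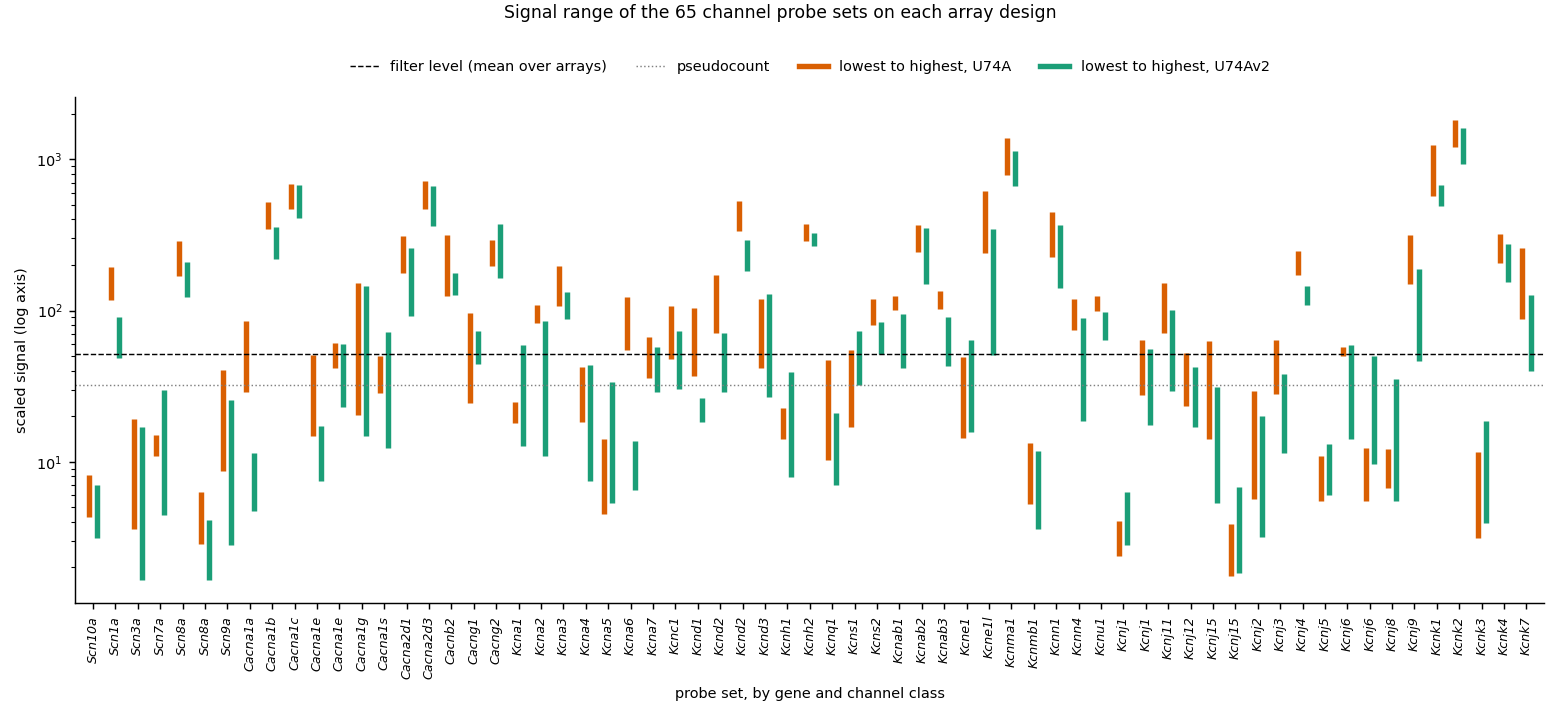
Scaled signal (log axis) of each of the 65 channel probe sets, drawn as the range from the lowest to the highest array on U74A (4 arrays, orange) and on U74Av2 (6 arrays, green), ordered by channel class. The dashed line at 51.3 divides tested from untested probe sets by their mean, the dotted line marks 32, and Cacna1a and Kcna6 show ranges of the designs that do not meet.

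At 24 h with lactacystin 4 of the 33 tested channel probe sets fell and none rose. These were Cacna1g, Kcnd2, Kcnma1 and Kcnk2. Over all probe sets 6.63% fell and 8.15% rose (14.8% in all, limma). At 48 h Kcne1l rose and Cacna1g fell, where 6.76% of all probe sets rose and 3.57% fell (10.3% in all). With the arrays scaled to a common median, 289 of the 6984 probe sets rose and 640 fell at 48 h, in place of 472 and 249, and 1 member rose and 7 fell. With both times fitted together 7 members fell and 2 were called higher, Kcne1l and Kcnd3. Over all probe sets 7.52% fell and 9.48% rose (17.0% in all). Kcnd3 entered the test only through the lactacystin groups, so its call is a description and no support for a rise. Median scaling turned the balance over all probe sets in this fit too, from 662 higher and 525 lower to 455 and 710, with 2 members higher and 8 lower. This fit uses the same arrays again and is no independent evidence. In these cultures fewer neurons and less RNA per neuron cannot be told apart.

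The median change of the 33 tested members was -0.25 at 24 h and -0.19 at 48 h, where the median over all 6984 probe sets was -0.03 and 0.04. Below 0 at 24 h were 25 of the 33 (75.8%), against 54.4% of all probe sets, and again 25 at 48 h, against 44.1%. Rescaling the arrays to a common median instead moved the median of all probe sets at 48 h to -0.11 and that of the members to -0.32. Scaled signals of all lactacystin arrays lay below those of both controls for 12 of the 33 at 24 h (18.9% of all probe sets) and for 9 at 48 h (9.91%). They lay above for 1 at 24 h (17.2%) and 2 at 48 h (16.6%). These counts are over pooled designs. The 33 are the members that passed the filter on the mean over all arrays. Of these, 26 were above the filter level in all 4 groups and 6 in 3 groups. Cacna1g was among the 6 and was under that level with lactacystin at 24 h. Kcnd3 was above it only in the lactacystin groups, through which it passed.

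The counts rested on few arrays. At 24 h 1 member was past the threshold without control replicate 1 (8.45% of all probe sets), control replicate 2 (4.41%) or lactacystin replicate 3 (10.1%), and 2 without lactacystin replicate 1 (10.8%). At 48 h there was none without control replicate 1 of that time (3.35%). There was 1 without control replicate 2 (3.05%), lactacystin replicate 2 (7.26%), or lactacystin 24 h replicate 2 (7.96%) or 3 (7.86%), and there were 5 without lactacystin replicate 3 (9.95%). Over both times there were 2 without control 24 h replicate 2 (10.9%), 3 without control 48 h replicate 2 (12.7%) or lactacystin 24 h replicate 1 (11.9%), and 5 without control 24 h replicate 1 (13.3%).

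**Figure D2:**
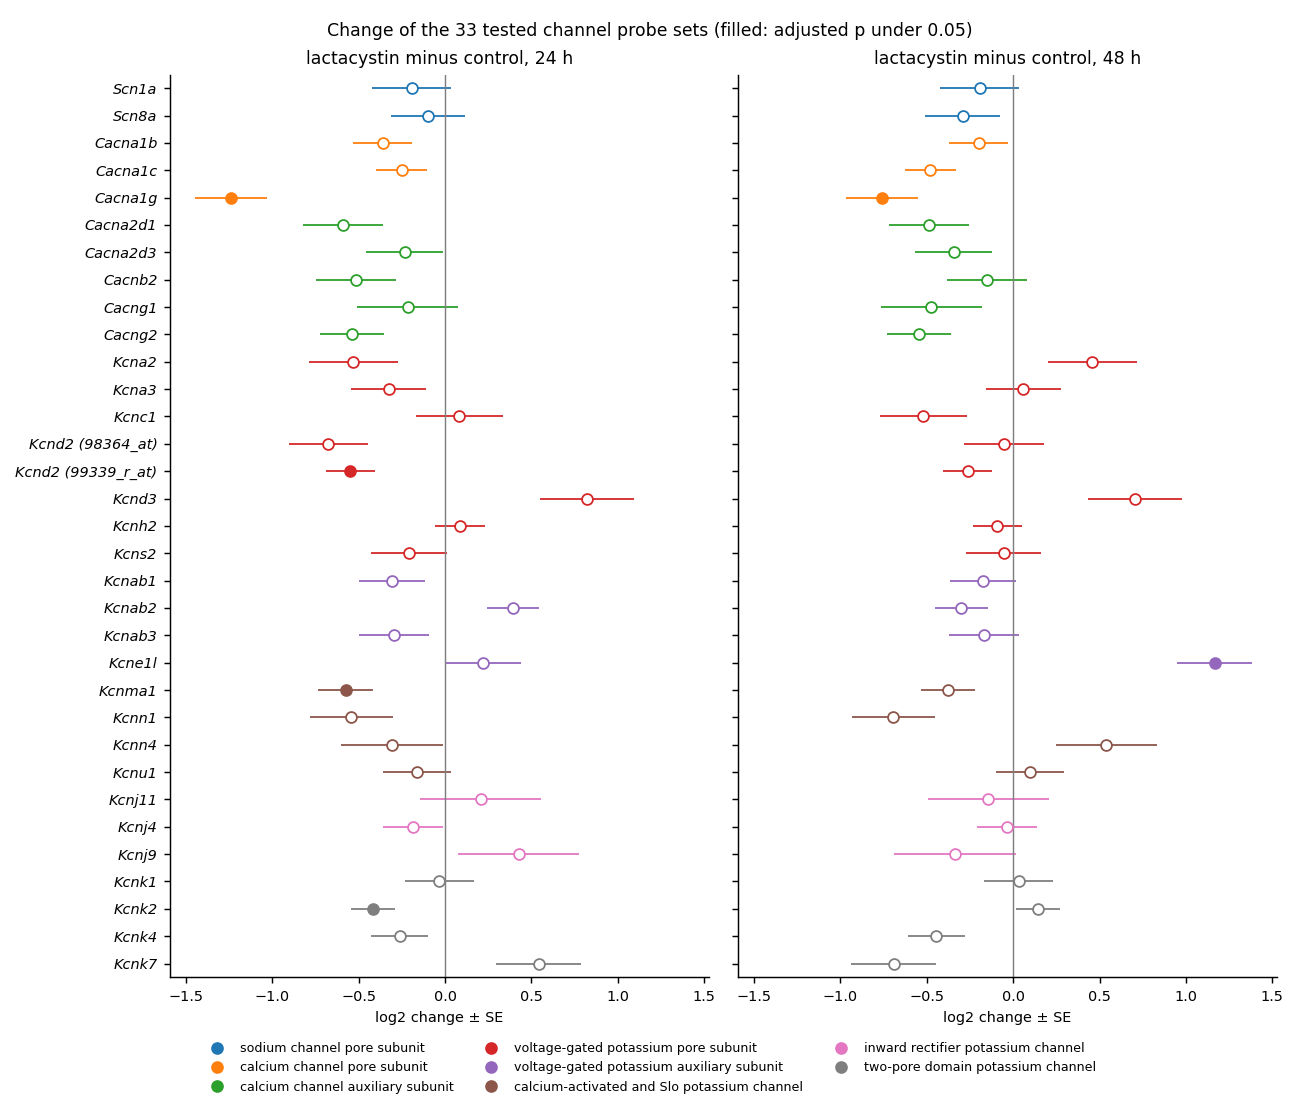
Log2 change (lactacystin minus control, with SE) of the 33 tested channel probe sets at 24 h on the left and at 48 h on the right, ordered and coloured by channel class, with filled points where the adjusted p is under 0.05. Most points lie left of 0 at both times, and the filled ones are Cacna1g, Kcnd2, Kcnma1 and Kcnk2 at 24 h, and Cacna1g and Kcne1l at 48 h.

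Of the pore subunits of calcium channels, Cacna1g fell at both times. Cacna1g encodes a T-type channel, which opens near the resting potential and supports burst firing. Its scaled signals were 104 and 75.6 in the 24 h controls and 20.3, 14.8 and 21.8 with lactacystin. At 48 h they were 152 and 145 in the controls and 85.8, 75.3 and 62.7 with lactacystin. The groups did not overlap at either time, and the 3 arrays of lactacystin at 24 h were the lowest of the 10. All 3 lay under the filter level, and Cacna1g passed the filter through its other 3 groups. They also lay under the constant added before log2 was taken, so the size of the fitted 24 h change depends on that constant. The change was -1.24 ± 0.21 (SE, adjusted p = 0.0025) at 24 h, -0.76 ± 0.21 (adjusted p = 0.0401) at 48 h and -1.0 ± 0.16 (adjusted p = 0.0016) over both times. Within U74A it was -1.37 and within U74Av2 -1.10 at 24 h, and -0.96 and -0.65 at 48 h.

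The falls of Cacna1g at 24 h and over both times stayed past the threshold without any 1 of the 10 arrays, although on the U74Av2 arrays alone the 24 h fall had adjusted p = 0.0518. The 48 h call was lost without any 1 array of that time (adjusted p from 0.0527 to 0.21) and without lactacystin 24 h replicate 2 (0.0561) or 3 (0.0588). It was also lost on U74Av2 alone (0.182), without the design covariate (0.135), with a replicate block (0.0729), with the arrays of 48 h alone (0.0627), with a pseudocount of 16 (0.0564) and with no filter (0.0551).

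Cacna1c, the pore of an L-type channel that couples activity to gene transcription, fell over both times by 0.37 ± 0.11 (SE, adjusted p = 0.0408). Its signals were 612 and 624 in the 24 h controls and 469, 566 and 525 with lactacystin. At 48 h they were 681 and 678 in the controls and 567, 407 and 484 with lactacystin. The groups, pooled over designs, did not overlap at either time, and neither single time passed the threshold (-0.25 ± 0.15, adjusted p = 0.286, and -0.48 ± 0.15, adjusted p = 0.0602). Within U74A the change was -0.36 at 24 h and -0.47 at 48 h, and within U74Av2 -0.19 and -0.47. The call over both times was lost without any 1 control array, without lactacystin 24 h replicate 1 or 3, or without lactacystin 48 h replicate 3 (adjusted p from 0.066 to 0.109). It was also lost on U74Av2 alone (0.262), without the design covariate (0.0945), with a replicate block (0.0913), with no filter (0.0568) and with eBayes without trend (0.0548). Its probe set is of a type (_s_at) that can match several related transcripts. Cacna1b, the N-type pore of nerve terminals, stood at -0.36 ± 0.17 and -0.20 ± 0.17 at the 2 times, neither past the threshold.

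All 5 auxiliary subunits of calcium channels lay below 0 at both times, with medians of -0.51 and -0.47, and none passed the threshold at a single time. Below 0 at both times were 19 of the 33 tested members (57.6%) and 30.4% of all probe sets. For Cacna2d1, Cacna2d3 and Cacng1 the sign differed between the array designs at 1 of the times. Over both times Cacng2 and Cacna2d1 fell. Cacng2, stargazin, carries AMPA receptors to synapses. Its signals were 292 and 375 in the 24 h controls, and 197, 241 and 223 with lactacystin. At 48 h they were 294 and 336, and 165, 211 and 254 with lactacystin. Pooled over designs, the groups did not overlap at either time. Within U74A the change was -0.50 at 24 h and -0.19 at 48 h, and within U74Av2 -0.63 and -0.75. The fitted change was -0.54 ± 0.19 (SE, adjusted p = 0.0751) at 24 h, -0.54 ± 0.19 (adjusted p = 0.0888) at 48 h and -0.54 ± 0.13 (adjusted p = 0.0146) over both. That last call was lost without control 24 h replicate 2 (0.0741) or control 48 h replicate 2 (0.0558).

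Cacna2d1, the alpha2delta subunit that brings calcium channels to the cell surface and binds gabapentin, had signals of 311 and 259 in the 24 h controls and of 178, 159.7 and 167 with lactacystin. At 48 h these were 242 and 221, and 126, 92.4 and 262 with lactacystin. The groups were apart at 24 h and overlapped at 48 h, where the U74A lactacystin array was the highest. Over both times it fell by 0.54 ± 0.16 (SE, adjusted p = 0.0401), with -0.59 ± 0.23 at 24 h (adjusted p = 0.113) and -0.49 ± 0.23 at 48 h (adjusted p = 0.218). This call held without control 48 h replicate 1 or lactacystin 48 h replicate 3 and was lost without each of the other 8 arrays (adjusted p from 0.0552 to 0.149), with no filter (0.0808) and without the design covariate (0.115). The remaining members were Cacna2d3 (-0.23 and -0.35), the beta subunit Cacnb2 (-0.51 and -0.15) and Cacng1, known from skeletal muscle (-0.22 and -0.47). Cacna2d3 at 48 h was at 0.31 on U74A and -0.78 on U74Av2. Cacng1 at 24 h was at -1.0 on U74A and 0.29 on U74Av2.

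Neither tested sodium channel changed by the test in any comparison. Scn1a, prominent in inhibitory interneurons, ran from 118 to 194 on U74A and from 48.3 to 90 on U74Av2, with a change of -0.19 ± 0.23 at both times. The higher probe set of Scn8a stood at -0.10 ± 0.22 at 24 h and -0.29 ± 0.22 at 48 h. Scn9a, Scn10a, Scn3a, Scn7a and the other Scn8a probe set were under the filter.

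Among the pore subunits of voltage-gated potassium channels, the A-type gene Kcnd2 fell at 24 h and over both times. A-type channels give the fast transient potassium current that delays firing and limits back-propagation into dendrites. The probe set of Kcnd2 with the higher signal read 533 and 289 in the 24 h controls and 335, 209.6 and 183 with lactacystin. At 48 h it read 448 and 291 in the controls and 201, 223 and 426 with lactacystin. The groups overlapped at both times as pooled. Within each design the 24 h lactacystin arrays were lower (-0.62 on U74A and -0.50 on U74Av2).

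This probe set fell by 0.55 ± 0.14 (SE, adjusted p = 0.0233) at 24 h and by 0.41 ± 0.11 (adjusted p = 0.0251) over both times, and stood at -0.26 ± 0.14 (adjusted p = 0.287) at 48 h. The 24 h call was lost without either 24 h control (0.123 and 0.136), without lactacystin replicate 1 (0.0717) or 3 (0.0749), on the U74Av2 arrays alone (0.141), with a replicate block (0.0728) and without the design covariate (0.398). The call over both times was lost without either 24 h control (0.0778 and 0.0911), control 48 h replicate 2 (0.0653), or lactacystin 24 h replicate 1 (0.0737) or 3 (0.0562), on U74Av2 alone (0.102), with a replicate block (0.109) and without the design covariate (0.261). The other Kcnd2 probe set stood at -0.68 ± 0.23 (adjusted p = 0.0709) at 24 h. At 48 h it was at -0.05 ± 0.23 (adjusted p = 0.927), which gives no direction. Its mean with lactacystin at 24 h was under the filter level.

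Kcnd3, the other measured A-type gene that entered the test, did so only through the lactacystin groups, so its values are a description. It read 55.9 and 32.8 in the 24 h controls and 119.8, 53.5 and 128 with lactacystin. At 48 h it read 42.0 and 27.0 in the controls and 47.0, 79.2 and 92.4 with lactacystin. The groups overlapped slightly at 24 h and not at 48 h, and the control signals were near or under the filter level. The fitted difference was 0.76 ± 0.19 (SE, adjusted p = 0.0166) over both times, 0.82 ± 0.27 at 24 h (adjusted p = 0.0651) and 0.71 ± 0.27 at 48 h (adjusted p = 0.13). Over both times it was not past the threshold without control 24 h replicate 2 (0.0641), on U74Av2 alone (0.173), with a replicate block (0.1005) or without the design covariate (0.0949). The other tested pores of this class (Kcna2, Kcna3, Kcnc1, Kcnh2 and Kcns2) lay between -0.53 and 0.46 over the 2 times and none passed the threshold.

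Of the auxiliary subunits of potassium channels, Kcne1l rose at 48 h. Kcne1l, also called Kcne5, encodes a small membrane protein that modulates KCNQ channels. Its signals were 239.7 and 50.9 in the 24 h controls and 252, 84.2 and 78.0 with lactacystin. At 48 h they were 250.3 and 149 in the controls and 346, 328 and 619.6 with lactacystin. The highest array of each of the first 3 groups was on U74A, as was the highest of all, and at 48 h every lactacystin array was above both controls. The change was 1.17 ± 0.22 (SE, adjusted p = 0.0066) at 48 h, 1.21 within U74A and 1.03 within U74Av2. At 24 h it was 0.22 ± 0.22 (adjusted p = 0.538), and over both times 0.69 ± 0.21 (adjusted p = 0.0368).

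The 48 h call was lost without control 48 h replicate 1 (0.0929) and without the design covariate (0.526). The call over both times was lost without control 24 h replicate 2, either 48 h control, lactacystin 24 h replicate 1 or any 48 h lactacystin array (adjusted p from 0.0633 to 0.105). It was also lost without the design covariate (0.529), with a replicate block (0.0789), with no filter (0.0763), on U74Av2 alone (0.0516) and with eBayes without trend (0.0506). The effect at 48 h minus that at 24 h was 0.95 ± 0.30 (adjusted p = 0.157), so the times were not shown to differ.

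Kcnab2, a beta subunit of Shaker-type channels, read 308 and 244 in the 24 h controls and 370.1, 351 and 343 with lactacystin. At 48 h it read 284 and 197 in the controls and 150.0, 153 and 242 with lactacystin. The groups were apart at 24 h and overlapped at 48 h. The changes of 0.39 ± 0.15 (SE, adjusted p = 0.109) and -0.30 ± 0.15 (adjusted p = 0.253) did not pass, nor did their difference of -0.69 ± 0.21 (adjusted p = 0.144). Kcnab1 (-0.31 and -0.17) and Kcnab3 (-0.29 and -0.17) did not pass either.

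Among the calcium-activated potassium channels Kcnma1 fell at 24 h and, with Kcnn1, over both times. Kcnma1 encodes the large-conductance BK channel, which shortens action potentials when calcium enters. Its signals were 1378 and 1139 in the 24 h controls and 788, 817 and 829.8 with lactacystin. At 48 h they were 1202 and 1133, and 917, 667 and 1081 with lactacystin. Pooled over designs, the groups did not overlap at either time. Within U74A the change was -0.78 at 24 h and -0.15 at 48 h, and within U74Av2 -0.45 and -0.52. The fitted change was -0.58 ± 0.16 (SE, adjusted p = 0.0304) at 24 h, -0.38 ± 0.16 (adjusted p = 0.16) at 48 h and -0.48 ± 0.12 (adjusted p = 0.0147) over both times.

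The 24 h call of Kcnma1 was lost without any 1 of the 5 arrays of that time (adjusted p from 0.0506 to 0.161), on the U74Av2 arrays alone (0.193), without the design covariate (0.129), with eBayes without trend (0.0571) and with no filter (0.0523). Over both times it was lost without control 24 h replicate 2 (0.0557) or lactacystin 24 h replicate 1 (0.0503), and on U74Av2 alone (0.0825).

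Kcnn1, a small-conductance SK channel of the afterhyperpolarisation, read 445 and 366 in the 24 h controls and 227, 247 and 303 with lactacystin. At 48 h it read 405 and 352 in the controls and 192, 141 and 348 with lactacystin. The groups did not overlap as pooled over designs, although the U74A lactacystin array at 48 h was just under the lower control. Within U74A the change was -0.88 at 24 h and -0.20 at 48 h, and within U74Av2 -0.38 and -0.97. Kcnn1 fell over both times by 0.62 ± 0.17 (SE, adjusted p = 0.0276), with -0.54 ± 0.24 at 24 h (adjusted p = 0.163) and -0.69 ± 0.24 at 48 h (adjusted p = 0.0974). The call was lost without any 1 control, without lactacystin replicate 1 of either time (adjusted p from 0.0511 to 0.0963), on U74Av2 alone (0.0798), without the design covariate (0.0725) and with no filter (0.0564). Kcnn4 (-0.31 and 0.54) and Kcnu1, known from sperm (-0.16 and 0.10), did not pass.

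None of the 3 tested inward rectifiers, which hold the membrane near rest, changed by the test. Kcnj4 stood at -0.19 ± 0.17 and -0.04 ± 0.17 at the 2 times. Kcnj9, a subunit of G-protein-gated channels, was at 0.43 ± 0.35 and -0.34 ± 0.35. Kcnj11, the pore of the ATP-sensitive channel, was at 0.21 ± 0.35 and -0.15 ± 0.35. These last 2 had the largest SE of the tested members.

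Of the tandem-pore channels, which carry background potassium current, Kcnk2 fell at 24 h. Kcnk2 encodes TREK-1, a channel gated by membrane stretch and lipids. Its signals were 1446 and 1424 in the 24 h controls and 1208, 935 and 1019 with lactacystin. At 48 h they were 1424 and 1527, and 1413, 1610.1 and 1813 with lactacystin. The groups were apart at 24 h and overlapped at 48 h. The change was -0.42 ± 0.13 (SE, adjusted p = 0.0457) at 24 h and 0.14 ± 0.13 (adjusted p = 0.55) at 48 h, a difference of 0.56 ± 0.18 (adjusted p = 0.149). The 24 h call was lost without either 24 h control (0.0939 and 0.338), without lactacystin replicate 2 (0.144) or 3 (0.104), and under 7 other settings. These were no design covariate (0.164), a replicate block (0.102), eBayes without trend (0.0823), median scaling (0.0818), no filter (0.0608), U74Av2 alone (0.0603) and quantile normalization (0.0535).

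Kcnk7, a relative with no known current of its own, read 88.2 and 39.6 in the 24 h controls, and 105, 117 and 74.0 with lactacystin. At 48 h it read 259 and 128 in the controls and 100.2, 93.9 and 93.5 with lactacystin. The 48 h controls were the highest arrays. Neither time passed (0.54 ± 0.25, adjusted p = 0.17, and -0.69 ± 0.25, adjusted p = 0.105). Their difference was -1.23 ± 0.35 (SE, adjusted p = 0.112), and the controls differed between the times by 1.22 ± 0.27 (adjusted p = 0.419). Kcnk1 (-0.03 and 0.03) and Kcnk4 (-0.26 and -0.45) did not pass.

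**Figure D3:**
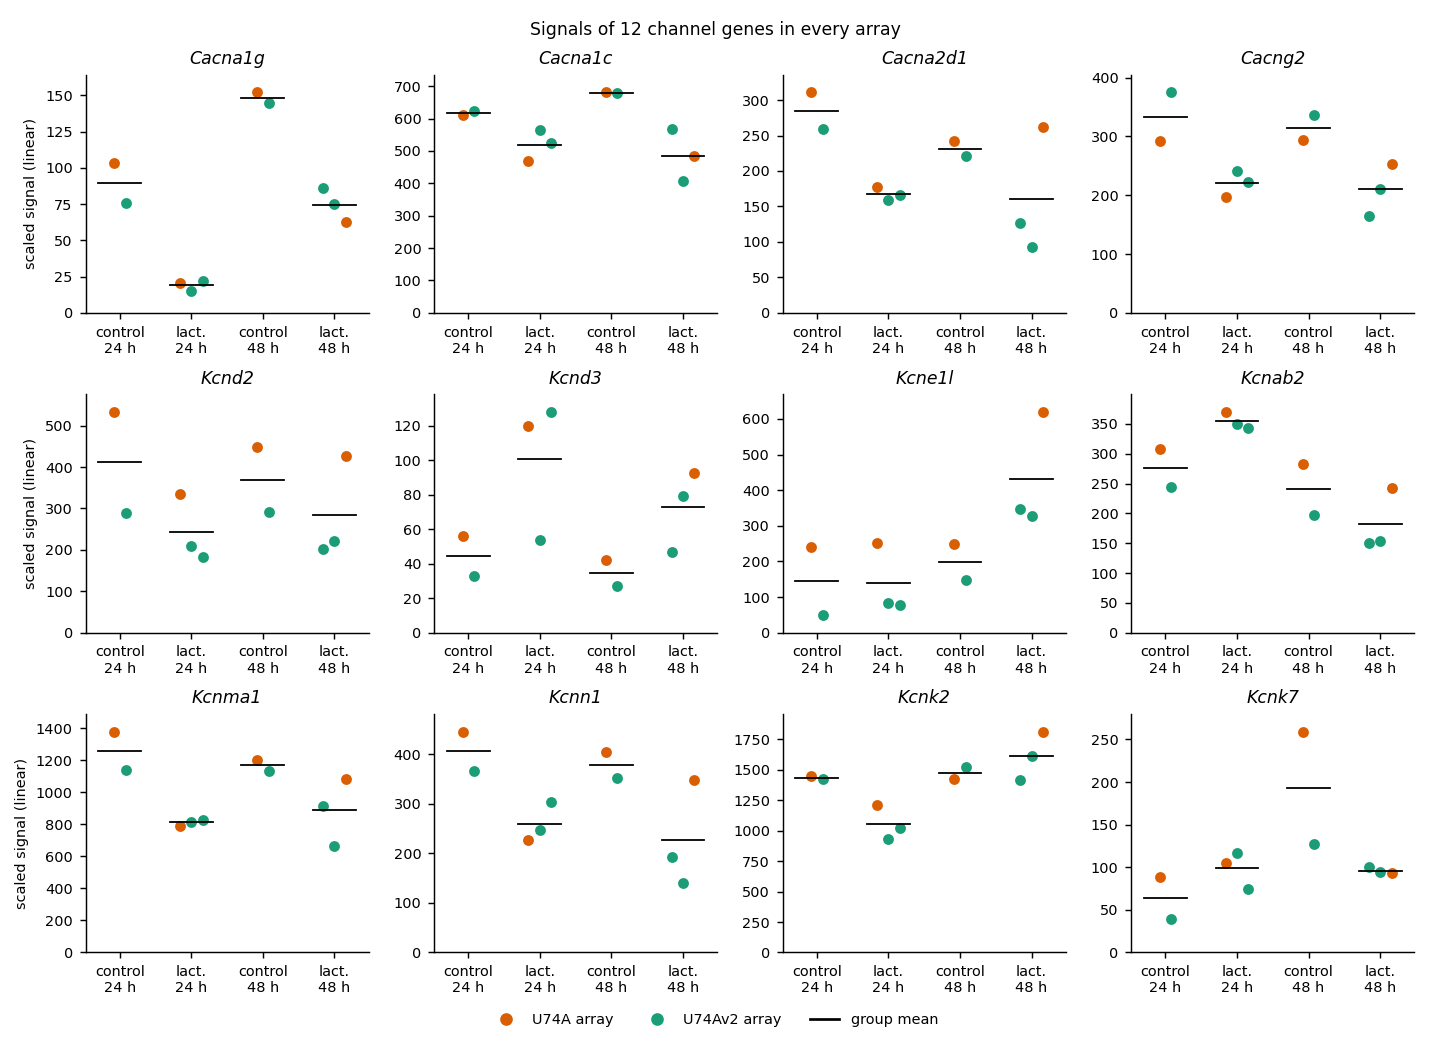
Scaled signal (linear axis from 0) of 12 channel genes in every array of the 4 groups, with U74A arrays in orange, U74Av2 arrays in green and the group mean as a line. The lactacystin arrays of Cacna1g at 24 h lie at 14.8 to 21.8 under controls of 75.6 and 104, and those of Kcne1l at 48 h at 328 to 619.6 above controls of 149 and 250.3.

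The 2 array designs can be read as separate comparisons, with 1 lactacystin array against 1 control on U74A and 2 against 1 on U74Av2 at each time. At 24 h 22 of the 33 members were below 0 on both designs and 5 above on both (81.8% with the same sign, against 69.0% of all probe sets). At 48 h it was 18 and 5 (69.7%, against 66.3%). Cacna2d1 at 48 h was at 0.10 on U74A and -0.85 on U74Av2, and Kcnk2 at 0.34 and -0.02. No channel probe set passed the test of the difference between the times, where 1.29% of all probe sets did (0.444% higher and 0.845% lower at 48 h than at 24 h). Without adjustment 5 of the 33 were under 0.05 (15.2%), against 16.2% of all probe sets. The controls of the 2 times did not differ by the limma test for any of the 6984 probe sets, with 390 under 0.05 before adjustment (5.58%), 3 of them members (9.09% of the 33).

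**Figure D4:**
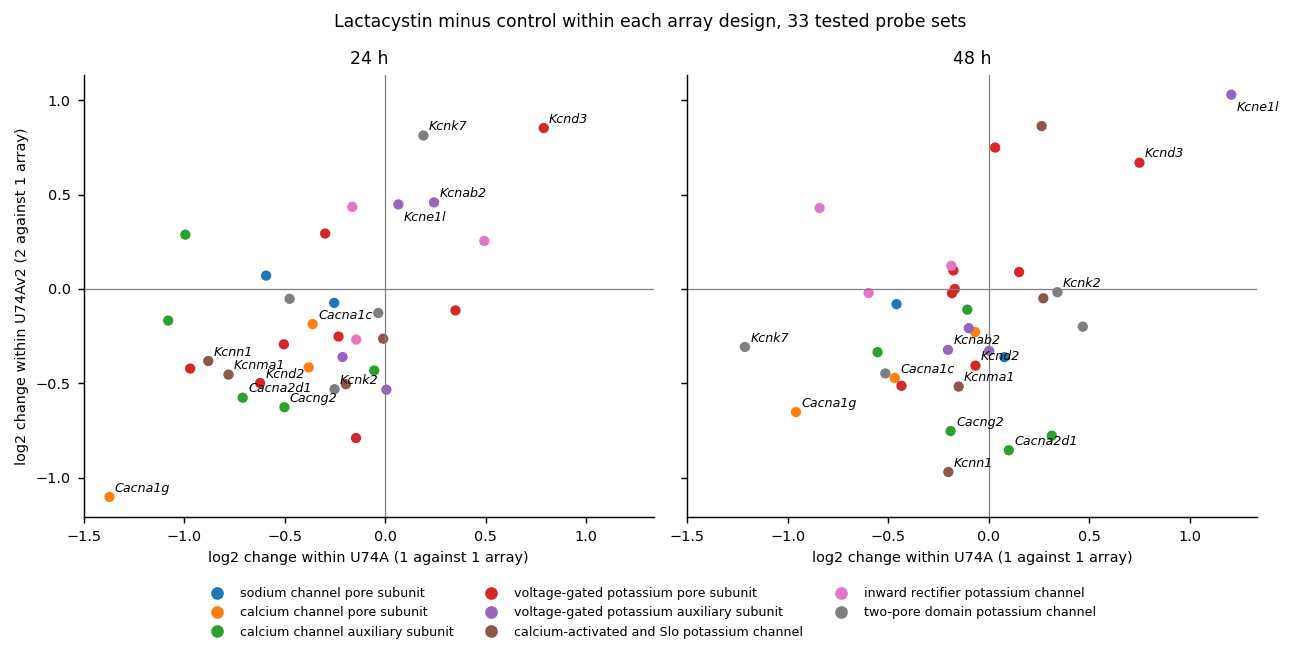
Log2 change with lactacystin within U74A (horizontal) against that within U74Av2 (vertical) for the 33 tested channel probe sets, at 24 h on the left and 48 h on the right, coloured by class. Cacna1g lies far down on both axes at 24 h (-1.37 and -1.10), and Kcne1l far up on both at 48 h (1.21 and 1.03).

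Promoter sequence, from 250 bases before to 50 after the annotated start, was matched by symbol for 46 of the 59 genes (RefSeq, GRCm38.p6). Those shown belong to 3 of the genes called at a single time, Kcne1l upward and Kcnd2 and Kcnma1 downward. Cacna1g, which had no matched promoter, and Kcnk2 were also called at 24 h and are not shown. Capitals mark the GC box GGGCGG on either strand, the motif bound by Sp-family factors. Kcne1l lies at chrX:142306149-142306448 on the minus strand, Kcnd2 at chr6:21215096-21215395 on the plus strand, and Kcnma1 at chr14:24004156-24004455 on the minus strand.
Kcne1l: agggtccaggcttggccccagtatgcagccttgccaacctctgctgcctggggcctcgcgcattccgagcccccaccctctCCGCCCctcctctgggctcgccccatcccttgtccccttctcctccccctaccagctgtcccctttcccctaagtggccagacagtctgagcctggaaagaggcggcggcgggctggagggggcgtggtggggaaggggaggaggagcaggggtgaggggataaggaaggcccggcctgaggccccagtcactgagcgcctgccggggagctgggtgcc
Kcnd2: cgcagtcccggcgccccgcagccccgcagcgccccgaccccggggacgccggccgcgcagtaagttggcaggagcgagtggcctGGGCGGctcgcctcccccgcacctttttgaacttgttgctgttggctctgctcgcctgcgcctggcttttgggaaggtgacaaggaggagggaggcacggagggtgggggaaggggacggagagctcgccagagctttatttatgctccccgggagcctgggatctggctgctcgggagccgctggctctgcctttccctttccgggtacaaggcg
Kcnma1: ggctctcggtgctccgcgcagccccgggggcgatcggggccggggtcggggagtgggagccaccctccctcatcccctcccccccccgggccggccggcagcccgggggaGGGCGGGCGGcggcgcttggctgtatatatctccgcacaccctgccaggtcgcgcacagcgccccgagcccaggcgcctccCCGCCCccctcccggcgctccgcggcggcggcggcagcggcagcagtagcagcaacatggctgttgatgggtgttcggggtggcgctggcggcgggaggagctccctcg
The gene that rose and 1 that fell each held 1 GC box, and Kcnma1 held 3, of which 2 overlap. Of genes called over both times only, Cacna2d1 held 7, while Cacng2 and Kcnd3 held none. No count is given for Kcnn1 and Cacna1c, also called over both times only, so these counts do not stand for the called genes. The 46 matched channel genes had 59 promoters, as some had more than 1. The box was in 49.2% of these 59 promoters and in 35.7% of all 32851 promoters, with a median GC content of 59.7% and 52.7%. Of motifs tied to stress responses, searched on both strands, the antioxidant element TGACNNNGC was in 18.6% of channel promoters and 12.4% of all. The heat shock pair GAANNTTC was in 5.08% and 7.86%, and the AP-1 site TGANTCA in 1.69% and 7.81%. The cAMP element TGACGTCA was in 0 of the 59 promoters and 1.79% of all. The 3 promoters shown held none of these 4.

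Genes that work with the channels gave mixed counts. Of 7 measured ion pumps and exchangers, 2 fell at 24 h and 1 at 48 h, and none rose. Slc8a1, the sodium-calcium exchanger, was at -0.93 ± 0.13 and Atp1b2, a subunit of the sodium pump, at -0.79 ± 0.19 at 24 h, and Atp2a2, the calcium pump of the endoplasmic reticulum, at -0.75 ± 0.21 at 48 h. Of 20 tested partners and anchors, 2 rose (Rrad and Rit1) and 3 fell at 24 h, and 1 rose and 1 fell at 48 h. Ank3, which anchors sodium channels at the axon initial segment, fell by 0.70 ± 0.18 at 48 h. Fxyd1, a regulator of the sodium pump, was at -0.58 ± 0.17 at 24 h and 0.80 ± 0.17 at 48 h. Fgf13, which binds sodium channels, fell by 0.94 ± 0.20 at 24 h, and Cntn1, an axonal adhesion protein, by 0.60 ± 0.15. Of 18 tested other channels 1 rose and 3 fell at 24 h, and 1 rose and 1 fell at 48 h. Clic4, a chloride channel family protein, rose at both times (0.62 ± 0.13 and 0.46 ± 0.13), while Trpc4 (-0.95 ± 0.29) and Clcn4 (-0.51 ± 0.14) fell at 24 h and Asic2, an acid-sensing channel, at 48 h (-0.42 ± 0.12).

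All 9 measured neuronal markers were above the filter. Of these 3 fell at 24 h and 2 at 48 h, and none rose (medians -0.37 and -0.26). Their summed signal was 23557 to 29914 in the 24 h controls and 16073 to 19668 with lactacystin, and 28219 to 31310 and 18716 to 27550 at 48 h. Stmn2, a growth cone protein, fell at both times (-0.74 ± 0.11 and -0.57 ± 0.11), and Snap25 of the synaptic vesicle machinery at 48 h (-0.55 ± 0.15). Markers of other cell types were also above the filter. Of the 7 tested astrocyte markers 1 rose (Gja1) and 2 fell (Gfap and Aqp4) at 24 h, with a median of -0.23. At 48 h 3 rose, with a median of 0.56, where Gfap was at 1.40 ± 0.15 and Gja1 at 0.90 ± 0.16. Gfap thus fell at 24 h and rose at 48 h. The summed signal of the astrocyte markers was 12058 to 18050 and 11486 to 16406 at 24 h, and 12359 to 18509 and 15542 to 18941 at 48 h, controls given first. Of 7 tested microglial markers 1 rose at 24 h and 3 at 48 h (sums 685 to 956 and 780.0 to 1465 at 24 h, and 599 to 1140 and 1054 to 1659 at 48 h). Of 8 of fibroblasts and mural cells 1 and 2 rose, with Tagln at 2.12 ± 0.27 and Acta2 at 2.10 ± 0.33 at 48 h (sums 1426 to 1461 and 1282 to 2639, and 1334 to 1413 and 2216 to 4007). The median change over these 8 was -0.37 at 24 h and 0.23 at 48 h, so the named genes do not stand for the list. The tested markers of oligodendrocytes (2 of 6 measured), endothelium (2 of 8) and red cells (1 of 2) did not pass, and no marker was at 0. The part of these other cells in the changes of the channel genes was not tested.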

How the data were processed

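Gene expression in 10 samples of mouse primary cortical neurons was measured on Affymetrix arrays. The deposited values are intensities, 1 linear signal per probe set, made with MAS5 per the submitters' processing notes; its version and target are not given in the sources used here, and detection calls were not used. After removal of 66 control probe sets, each array was scaled to a 2% trimmed mean of 500 over 9977 shared probe sets, 32 was added and log2 taken. The 30% with the lowest mean were left out. limma 3.58.1 in R 4.3.3 fitted 4 groups with array design as a covariate (lmFit, eBayes with trend, two-sided, Benjamini-Hochberg over 6984 probe sets, 5 residual degrees of freedom, or 6 over both times with time as a covariate). All adjusted p-values are from these fits. Genes were named from the platform annotation for probe sets with 1 symbol (8724 shared probe sets, 346 had several and 907 none). In simulated data with known changes, the fits found 35.8% of changes of 1.5-fold and 85.1% of those of 2-fold at 24 h, and 46.3% and 82.1% at 48 h, with 8.12% and 5.59% false among the calls. For the difference between times they found 11.9% and 61.2% (3.42% false). Over both times these shares were 76.1% and 97.0% (2.15% false). Each simulation changed 67 of 6984 probe sets by 1.5-fold, 67 by 2-fold and 66 by 4-fold. Its errors were independent and normal with the spread estimated by the fit, so the shares need not hold for the real data. The members, lists and tests were chosen with earlier results of these data known. Members past the threshold in any comparison, or with the 2 smallest p where fewer than 2 passed, have values given in every array. Up to 4 genes of a list were given with values, those past the threshold at 24 h or 48 h with the largest change at 48 h. Alternatives were other pseudocounts, scalings, filters and variance models, no design covariate, U74Av2 alone, a replicate block, the arrays of 1 time alone and leaving out each array. A filter on the mean scaled signal was added after seeing the data.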

Additional observations from a re-analysis of the deposited data

How the results depend on the processing

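Of 15 calls of channel genes none reversed and 2 held without each array in turn. Under every other alternative that gave a value 2 held, and 1, Cacna1g over both times, held under all of them. The 15 include Kcnd3 over both times, which is a description only. Without the design covariate the probe sets past the threshold numbered 250 at 24 h, 113 at 48 h, 486 over both times and 2 for the difference between times, and the channel probe sets 1, 0 and 3. On U74Av2 alone there were 558, 385, 524 and 12 in all, and 0 channel probe sets at 24 h and 4 over both times. With the arrays of 1 time alone there were 7 channel probe sets of 1282 in all at 24 h and 1 of 439 at 48 h. At 48 h there was 1 channel probe set with a pseudocount of 16, with no filter or with the lowest 50% left out, (713, 498 and 665 in all), and 8 of 929 with median scaling, 1 higher and 7 lower. With no filter there were 5 channel probe sets of 1002 over both times and 48 probe sets for the difference, which median scaling put at 166 and eBayes without trend at 37. Leaving out 1 array gave 308 to 1100 probe sets at 24 h, 213 to 827 at 48 h, 763 to 1145 over both times, 5 to 187 for the difference and 0 to 2 for the controls, and 1 to 6, 0 to 5 and 2 to 8 channel probe sets. Kcnk2 at 48 h turned to -0.021 under median scaling and to -0.0171 on U74Av2 alone, and ran from -0.000171 to 0.31 without 1 array. Kcne1l at 24 h ran from -0.18 to 0.57 without 1 array. The cause of these changes was not tested.

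Whether replicate numbers pair the samples is not known, as the labels do not say. The number largely followed array design and the arrays were few, so the correlations below cannot settle it. Deviations of same-numbered samples correlated from -0.62 to 0.67 over 13 pairs, and from -0.41 to 0.27 once design was removed. With the replicate number as a block, 742 probe sets and 5 channel probe sets passed over both times, 779 and 3 at 24 h, and 541 and 2 at 48 h. Low signal limits the 32 untested channel probe sets.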

Other observations

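7 more probe sets of channel genes were on U74Av2 alone and entered no comparison. Over its 6 arrays, Kcnq1 ran from 184 to 294, Scn1a from 128 to 308, Kcnab2 from 135 to 221 and Kcnj9 from 85.1 to 169.9 in scaled signal. Cacna1h, a T-type relative of Cacna1g, ran from 14.5 to 45.9, Kcna5 from 4.84 to 21.1 and Kcnab1 from 6.58 to 19.5.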
